A study of Mus musculus with 12 samples.

Results

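The genes described here are 34 that encode parts of the lysosome and of the complexes on its membrane, out of 54532 genes in the deposited count table. They were chosen by name from what their products are known to do. They comprise 16 genes of the vacuolar proton pump (V-ATPase), the membrane glycoproteins Lamp1 and Lamp2, the Ragulator genes Lamtor1 to Lamtor5, 5 lysosomal proteases, 3 glycosidases with the saposin precursor Psap, and the regulators Tfeb and Mcoln1. RNA was sequenced in bulk from mouse bone marrow cells sorted as Lin-cKit+, the compartment that holds haematopoietic stem and progenitor cells. The study set mutant against wild-type cells, with and without metformin, an antidiabetic drug that acts on mitochondrial respiration.

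There were 4 groups of 3 libraries each. RH cells came from Dnmt3afl-R878H/+ mice, in which a floxed allele carries the R878H change of the DNA methyltransferase Dnmt3a, given metformin (RH MET) or vehicle (RH VEH). WT cells came from Dnmt3a+/+ mice given metformin (WT MET) or vehicle (WT VEH). Mice of all 4 groups were of C57BL/6 background and were crossed to the Mx1-cre strain, in which an interferon-inducible promoter drives the recombinase in blood-forming and other cells. The labels do not say when or how completely the allele was recombined. Treatment lasted 1 month within a competition experiment, with 2 animals per treatment group. The labels tie no library to a mouse, and the p-values below therefore rest on library-to-library spread, some of which may be technical.

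The V-ATPase uses ATP to pump protons into the lysosome: its V1 sector hydrolyses ATP in the cytosol and its V0 sector carries protons across the membrane. Ragulator anchors the Rag GTPases to the lysosomal surface, and together with the V-ATPase it brings the growth-control kinase complex mTORC1 there when amino acids are plentiful. Ragulator and the V-ATPase have also been described as the lysosomal site at which metformin leads to activation of the energy-sensing kinase AMPK. TFEB and its relatives are transcription factors that switch on lysosomal genes by binding E-box letters of the form CACGTG in their promoters.

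Promoters of several members are printed because those letters stood near a start of 13 of the 27 members that had a promoter entry. The sequences are RefSeq's (build GRCm38.p6) and are given 5′ to 3′ on the gene's own strand, with every CACGTG in capitals. The first 7 are members with the motif and the last, Lamtor2, is the member that varied most between libraries and has none.
Lamp1, chr8:13159081-13159160, plus strand: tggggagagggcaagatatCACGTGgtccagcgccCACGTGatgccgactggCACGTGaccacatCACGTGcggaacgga
Mcoln1, chr8:3500429-3500488, plus strand: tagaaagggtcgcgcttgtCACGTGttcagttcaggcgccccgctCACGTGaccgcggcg
Ctsd, chr7:142387888-142387947, minus strand: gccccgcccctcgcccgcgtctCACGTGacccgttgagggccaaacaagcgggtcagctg
Atp6v0b, chr4:117887330-117887389, minus strand: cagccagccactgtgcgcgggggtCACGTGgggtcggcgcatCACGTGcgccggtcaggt
Atp6v1a, chr16:44139360-44139419, minus strand: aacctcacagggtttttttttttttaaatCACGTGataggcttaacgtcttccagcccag
Lamtor4, chr5:138255342-138255401, plus strand: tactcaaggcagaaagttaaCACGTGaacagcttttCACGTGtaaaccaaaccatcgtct
Lamtor1, chr7:101905747-101905806, plus strand: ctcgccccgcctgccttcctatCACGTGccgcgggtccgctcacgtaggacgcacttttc
Lamtor2, chr3:88552952-88553031, minus strand: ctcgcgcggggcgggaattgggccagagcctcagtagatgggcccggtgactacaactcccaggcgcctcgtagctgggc

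RefSeq windows of 250 bases before to 50 after a start were available for 27 of the 34 members; Atp6v0a2, Atp6v1b2, Atp6v1c1, Atp6v1g1, Atp6v1h, Lamtor3 and Ctsb had no entry. CACGTG, which reads the same on both strands, stood in a window of 13 of the 27 members (48.1%). Over all genes with such windows, expressed here or not, it stood in 2187 of 27025 (8.09%). The 13 members were Lamp1, Mcoln1, Ctsa, Ctsd, Ctsl, Gaa, Glb1, Atp6v0b, Atp6v0d1, Atp6v0e, Atp6v1a, Lamtor1 and Lamtor4. The longer TCACGTG, searched on both strands and containing the first motif, stood in 12 of the 27 members (44.4%), against 4.29% of all genes, and Ctsl was the member that had the short motif without it. A match describes letters in a window and says nothing of binding in these cells. Levels per length are CPM (read counts scaled to library size) per kilobase of deposited gene length, and depend on that length. Their median was 26.4 for the 12 members with TCACGTG and 35.9 for the 15 without.

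Total counts ran from 13359583 to 21938003 per library, and all 34 members passed the filter on low counts, the lowest single value being 87 reads for Tfeb in RH VEH 2. The libraries fall into 2 rounds of 6, told apart by which deposited tables hold them, and each round holds all 4 groups. In WT MET 2 and RH VEH 2, both of round 2, 33.3% and 40.8% of counts came from the mitochondrial genome, against 1.57% to 4.32% in the other 10 libraries. Those 2 libraries also stood apart in markers of some blood lineages. They held 255 and 198 CPM summed over 13 monocyte and macrophage markers, against 466 to 1150 elsewhere. Over 13 granulocyte markers they held 1420 and 1500 CPM, against 3350 to 7200. Their 8 megakaryocyte markers summed to 1860 and 1490 CPM, against 523 to 996 elsewhere. The other libraries of round 2 differed in stromal and endothelial markers. Those 8 markers summed to 572 CPM in RH MET 3, 632 in RH VEH 3, 689 in WT MET 3 and 911 in WT VEH 3. They summed to 71.3 to 278 CPM elsewhere. Col1a1 and Col1a2 made up most of the 4 high sums. The 10 stem and progenitor markers summed to 621 to 1070 CPM in the 12 libraries. Among them Kit stood at 118 to 200 CPM and Gata2 at 141 to 330, while the stem cell markers Ly6a and Procr stood at 2.71 to 8.94 and 0.446 to 4.06. The 10 erythroid markers summed to 6500 to 11900 CPM and the 11 T and NK cell markers to 49.4 to 122 CPM, with Nkg7 at 34.5 to 70.8 and Cd3e at 0.378 to 3.08. WT MET 2 and RH VEH 2 did not stand apart in these sums, at 8390 and 8780 CPM for erythroid and 107 and 82.1 CPM for T and NK cell markers. In bulk RNA, fewer cells of a type and less RNA per cell cannot be told apart.

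Every member was expressed, at levels per length that differed widely. Psap, the precursor of the saposins that help to break down sphingolipids, was the highest at 173 CPM per kilobase as the mean of 12 libraries. It was followed by the aspartic protease Ctsd (109), the major membrane glycoprotein Lamp1 (94.7), the carboxypeptidase Ctsz (72.7) and the V-ATPase accessory protein Atp6ap1 (62.6). Tfeb was the lowest, at 2.02 CPM per kilobase. Next above it were Atp6v1h (4.90), the subunit that restrains free V1, the cysteine protease Ctsl (4.97) and the lysosomal calcium channel Mcoln1 (5.47). These ranks depend on the deposited gene length. Atp6v1h and Atp6v1f averaged 47.8 and 57.9 CPM, but 4.90 and 54.4 CPM per kilobase, at lengths of 9746 and 1063 bases. Summed over the 34 genes, the level was 3430 ± 145 CPM in RH MET, 3560 ± 327 in RH VEH, 3480 ± 290 in WT MET and 3560 ± 299 in WT VEH (SD, n = 3 each). The group sums differed by less than the spread within groups.

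**Figure D1:**
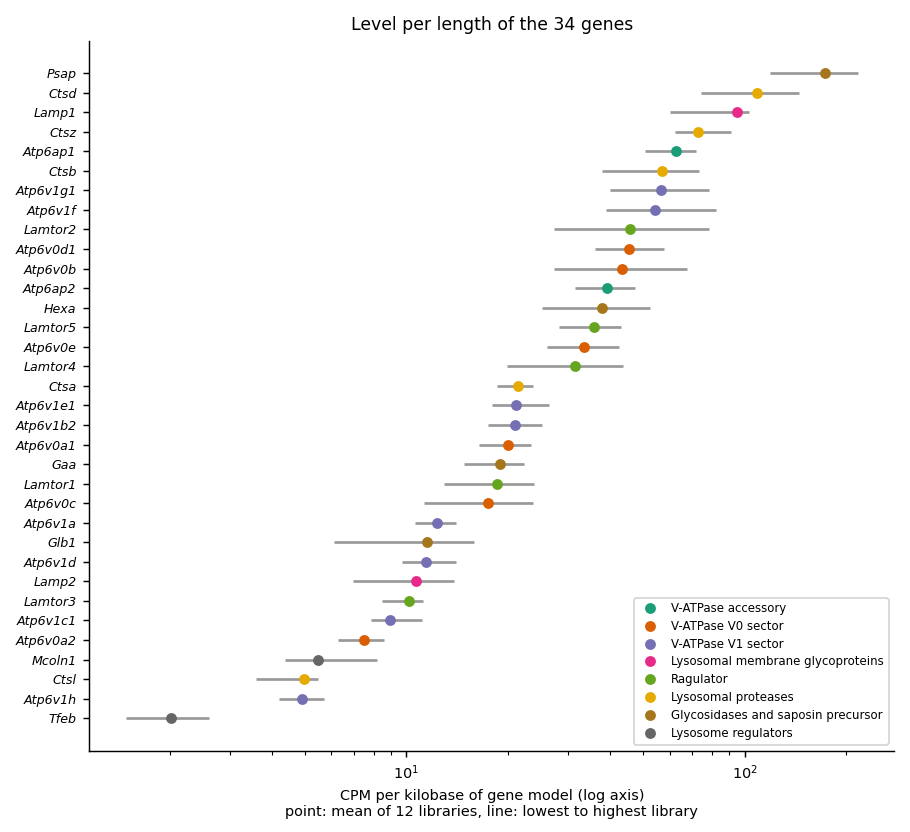
Level of each of the 34 genes in CPM per kilobase of gene model on a log axis, as the mean of 12 libraries (point, coloured by role) with the lowest and highest library (line). Psap is at the top with 173 and Tfeb at the bottom with 2.02; the line of Lamtor2 is among the longest and that of Ctsa among the shortest.

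No member passed the threshold of an adjusted p under 0.05 in any of the 7 comparisons (edgeR quasi-likelihood test, Benjamini-Hochberg over 15003 genes). Few genes of any kind did: the share called was 0% for RH VEH against WT VEH, 0.00667% for RH MET against WT MET, 0% for RH MET against RH VEH, 0% for WT MET against WT VEH, 0% for the difference between the 2 metformin effects, 0.00667% for the mean genotype effect and 0% for the mean metformin effect. The lowest adjusted p of a member was 0.648. DESeq2 called no member in any comparison either. Limma-voom with quality weights, which gives each library its own weight, called 5 members in RH MET against RH VEH (14.7% of 34, against 10.3% of all genes) and 9 in the difference between the metformin effects (26.5%, against 12%), and no member in the other 5, where it called 0.00667% (RH VEH against WT VEH), 4.37% (RH MET against WT MET), 0% (WT MET against WT VEH), 0.407% (mean genotype effect) and 0% (mean metformin effect) of all genes. Its weights were 2.93 for RH VEH 1 and 0.361 and 0.339 for RH VEH 2 and 3, so its RH VEH values rest mainly on RH VEH 1. With no filter on low counts, edgeR called 1 member, Lamtor2, in RH MET against RH VEH (0.832% of all genes) and in the difference between the metformin effects (1.57%). It called no member in RH VEH against WT VEH (0.636%), RH MET against WT MET (1.31%), WT MET against WT VEH (0.792%), the mean genotype effect (0.432%) and the mean metformin effect (0.229%).

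The intervals show how closely each difference was fitted, 1 gene at a time and from library-to-library spread. With 2 animals per treatment group, they may be too narrow for differences between mice. The 95% interval of the log2 fold change lay within 2-fold in either direction for 31 of 34 members in RH VEH against WT VEH, 32 in RH MET against WT MET, 31 in RH MET against RH VEH and 31 in WT MET against WT VEH. It lay within 1.5-fold for 23, 22, 24 and 20 members in the same comparisons. For the difference between the metformin effects it lay within 2-fold for 24 and within 1.5-fold for 5 of 34. For the mean genotype and mean metformin effects, which use all 12 libraries, it lay within 2-fold for 34 and within 1.5-fold for 33 of 34. The member outside 1.5-fold in both was Lamtor2, with a mean genotype effect of 0.00 (95% interval −0.59 to 0.59) and a mean metformin effect of −0.19 (−0.78 to 0.40).

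**Figure D2:**
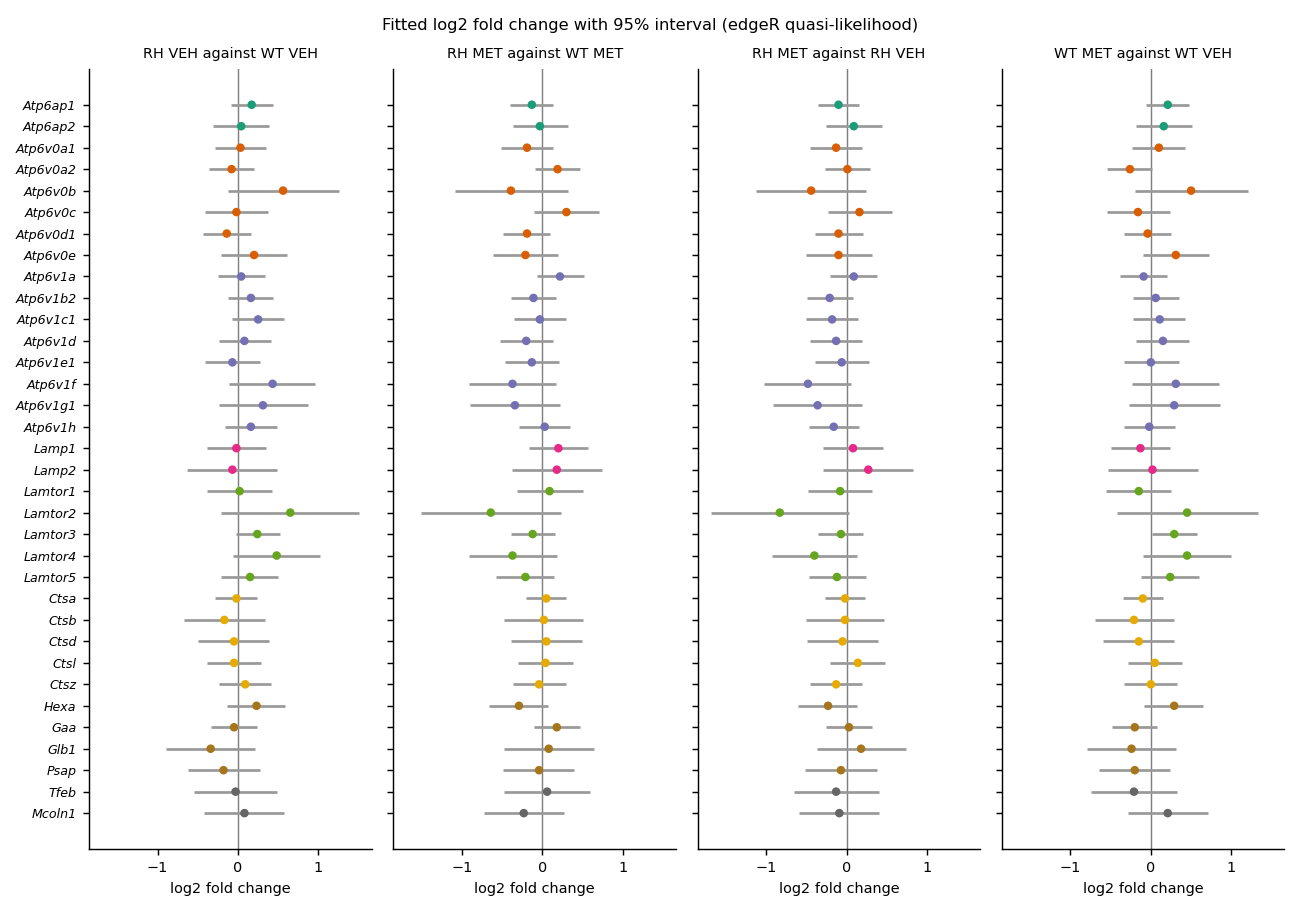
Fitted log2 fold change of each of the 34 genes (point, coloured by role as in the plot of levels) with its 95% interval (line) in the 4 comparisons between single groups. Most points lie near 0; Lamtor2, Lamtor4, Atp6v0b and Atp6v1f lie to the right for RH VEH against WT VEH and to the left for RH MET against RH VEH, and these comparisons share the RH VEH libraries.

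The V-ATPase accessory genes Atp6ap1 and Atp6ap2, whose products help to assemble the pump, varied little. Atp6ap1 averaged 187 ± 10.4 CPM in RH MET, 194 ± 20.6 in RH VEH, 199 ± 9.53 in WT MET and 178 ± 21.6 in WT VEH (SD, n = 3 each). Atp6ap2, also known as the prorenin receptor, stood at 98.7, 98.6 and 122 CPM in RH MET 1, 2 and 3, at 116, 82.6 and 97.2 in RH VEH, at 124, 89.8 and 106 in WT MET and at 104, 91 and 98.3 in WT VEH. The 4 groups overlap, and its mean metformin effect was 0.12 ± 0.112 (log2, SE), and 0.02 without RH MET 3.

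Among the V0 genes, Atp6v0b, a subunit of the proton-carrying ring, spread the most. It stood at 77.5, 83.1 and 72.8 CPM in RH MET 1, 2 and 3, at 118, 139 and 59.9 in RH VEH, at 78.6, 134 and 90.7 in WT MET and at 93, 56.2 and 66.6 in WT VEH. The 2 highest values were those of the libraries rich in mitochondrial transcripts, and RH VEH overlapped each of the other groups. Its log2 fold change for RH VEH against WT VEH was 0.56 ± 0.313 (SE; adjusted p = 0.977, edgeR), and 0.31 without those 2 libraries.

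Atp6v0c, the other ring subunit, stood at 78.3, 80 and 47.8 CPM in RH MET, at 66.6, 55.1 and 45.8 in RH VEH, at 56.5, 38.2 and 56.6 in WT MET and at 67.9, 56.5 and 58.3 in WT VEH. RH MET 1 and 2, both of round 1, were high and RH MET 3 was not. Its fold change was 0.30 ± 0.184 for RH MET against WT MET and 0.14 ± 0.125 for the mean genotype effect. Leaving out 1 library gave 0.20 (without WT MET 2) to 0.49 (without RH MET 3) for the first and 0.07 (without WT MET 2) to 0.23 (without WT MET 3) for the second, which was −0.11 in round 2 alone. Atp6v0d1, a subunit that couples V0 to the rotor, stood at 74, 79.7 and 74.7 CPM in RH MET, at 89.6, 64.8 and 78.1 in RH VEH, at 96.3, 69.9 and 82.2 in WT MET and at 104, 87.2 and 79.3 in WT VEH. The groups overlap, and its mean genotype effect was −0.16 ± 0.0942.

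Atp6v0a2, one of the alternative a subunits that place the pump in the cell, stood at 48, 50.8 and 51.6 CPM in RH MET, at 44.2, 55.6 and 57.7 in RH VEH, at 42.2, 48.9 and 47.5 in WT MET and at 46.5, 55.3 and 57.1 in WT VEH. WT MET and WT VEH overlap. The fold change of WT MET against WT VEH was −0.26 ± 0.129 (adjusted p = 0.876, edgeR) and the mean metformin effect −0.13 ± 0.0882. The remaining V0 genes, the a subunit Atp6v0a1 and the small subunit Atp6v0e, averaged 131 and 109 CPM over the 12 libraries.

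Of the 8 V1 genes, 7 had a positive log2 fold change in RH VEH against WT VEH (median 0.16) and 7 a negative one in RH MET against RH VEH (median −0.17), where the medians of all genes were 0.00 and −0.01. Both comparisons use the RH VEH libraries, and in round 2 alone 6 of the 8 were positive in the first and 4 of the 8 negative in the second, against 7 and 8 in round 1. Atp6v1f, a subunit of the central stalk, stood at 47.3, 51.7 and 48.7 CPM in RH MET 1, 2 and 3, at 75.7, 87.7 and 41.3 in RH VEH, at 57.7, 72.1 and 58.4 in WT MET and at 63, 42.3 and 48.5 in WT VEH. Every RH MET library was below every WT MET library, while RH VEH held both the highest and the lowest value. Its fold change was −0.48 ± 0.245 for RH MET against RH VEH (adjusted p = 0.932, edgeR), and −0.26 without WT MET 2 and RH VEH 2.

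Atp6v1a, the catalytic subunit that binds ATP, stood at 84.3, 80.5 and 76.2 CPM in RH MET, at 82.3, 65.7 and 77.4 in RH VEH, at 65.9, 69.4 and 70 in WT MET and at 64, 78.5 and 77.7 in WT VEH. All RH MET libraries were above all WT MET libraries. The fold change was 0.22 ± 0.136 for RH MET against WT MET (adjusted p = 0.738, edgeR), and the mean genotype effect 0.13 ± 0.0927, or 0.08 without WT VEH 1. The other V1 genes averaged 111 CPM (Atp6v1b2, the other subunit of the ATP-hydrolysing head), 50.1 (Atp6v1c1), 52.6 (Atp6v1d), 86.6 (Atp6v1e1), 64.1 (Atp6v1g1) and 47.8 (Atp6v1h). The highest library exceeded the lowest 1.36-fold for Atp6v1h and 1.96-fold for Atp6v1g1.

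Lamp1 and Lamp2 are the glycoproteins that line the inner face of the lysosomal membrane, and Lamp2 also serves chaperone-mediated autophagy. Lamp1 was the most even of the members outside the 2 libraries rich in mitochondrial transcripts, at 253 to 276 CPM in 10 libraries, a 1.09-fold range. It stood at 161 CPM in WT MET 2 and 221 CPM in RH VEH 2. Lamp2 averaged 112 ± 18 CPM in RH MET, 96.8 ± 32.2 in RH VEH, 103 ± 24.6 in WT MET and 97.9 ± 23.6 in WT VEH (SD, n = 3 each), with its lowest values in the same 2 libraries and in WT VEH 1.

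The spread of the Ragulator genes differed, with a ratio of highest to lowest library from 1.33 for Lamtor3 to 2.87 for Lamtor2. Lamtor2 (p14, ENSMUSG00000028062, chr3:88549819-88553074 in mm10), which forms a scaffold with Lamtor3, had the largest ratio of highest to lowest library of the 34 genes, 2.87. It stood at 41.7, 44.1 and 38.7 CPM in RH MET 1, 2 and 3, at 84.5, 95.6 and 35.3 in RH VEH, at 53.7, 84.2 and 48.4 in WT MET and at 68.5, 33.3 and 40.1 in WT VEH. All RH MET libraries were below all WT MET libraries, whereas RH VEH 3 was below all RH MET libraries.

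For Lamtor2 the log2 fold change of RH MET against RH VEH was −0.83 ± 0.386 (95% interval −1.69 to 0.03; adjusted p = 0.932, edgeR). It was −0.98 in round 1 and −0.71 in round 2, and −0.53 without WT MET 2 and RH VEH 2. With no filter on low counts it was −0.79 ± 0.186, with an adjusted p of 0.00402 (edgeR). Lamtor2 passed the filter, so its own counts were the same in both fits. What changed most was the SE, from 0.386 to 0.186.

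Lamtor4, which forms a dimer with Lamtor5 inside the complex, stood at 32.2, 32 and 41.9 CPM in RH MET, at 53.8, 56.6 and 33.5 in RH VEH, at 34.9, 56.8 and 51.3 in WT MET and at 41.5, 25.7 and 32.3 in WT VEH. Each pair of groups overlaps. Its fold change was 0.48 ± 0.248 for RH VEH against WT VEH, −0.40 ± 0.245 for RH MET against RH VEH and 0.45 ± 0.254 for WT MET against WT VEH. Without RH VEH 1 the first was 0.20 and the second −0.13.

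Lamtor3 (MP1), the scaffold partner of Lamtor2, had less spread. It stood at 40.9, 42.3 and 43.5 CPM in RH MET, at 46.3, 46.6 and 39.4 in RH VEH, at 44.5, 45.8 and 45.9 in WT MET and at 38.7, 38.9 and 35.1 in WT VEH. The WT VEH libraries lay below those of each other group. WT MET against WT VEH gave 0.29 ± 0.129 (adjusted p = 0.876, edgeR), 0.19 in round 1 and 0.36 in round 2.

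Lamtor3 was the 1 member of 34 at an unadjusted p under 0.05 in that comparison, where 4.03% of all genes were; there were 0 such members in the other 3 comparisons between single groups, where 2.03% (RH VEH against WT VEH), 5.78% (RH MET against WT MET) and 2.43% (RH MET against RH VEH) of all genes were. For the mean genotype and mean metformin effects there were 0 members too, and 2.65% and 1.63% of all genes. Lamtor1, which anchors the complex in the membrane by its lipid tail, averaged 59.4 CPM over the 12 libraries, and Lamtor5 31.8 CPM.

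**Figure D3:**
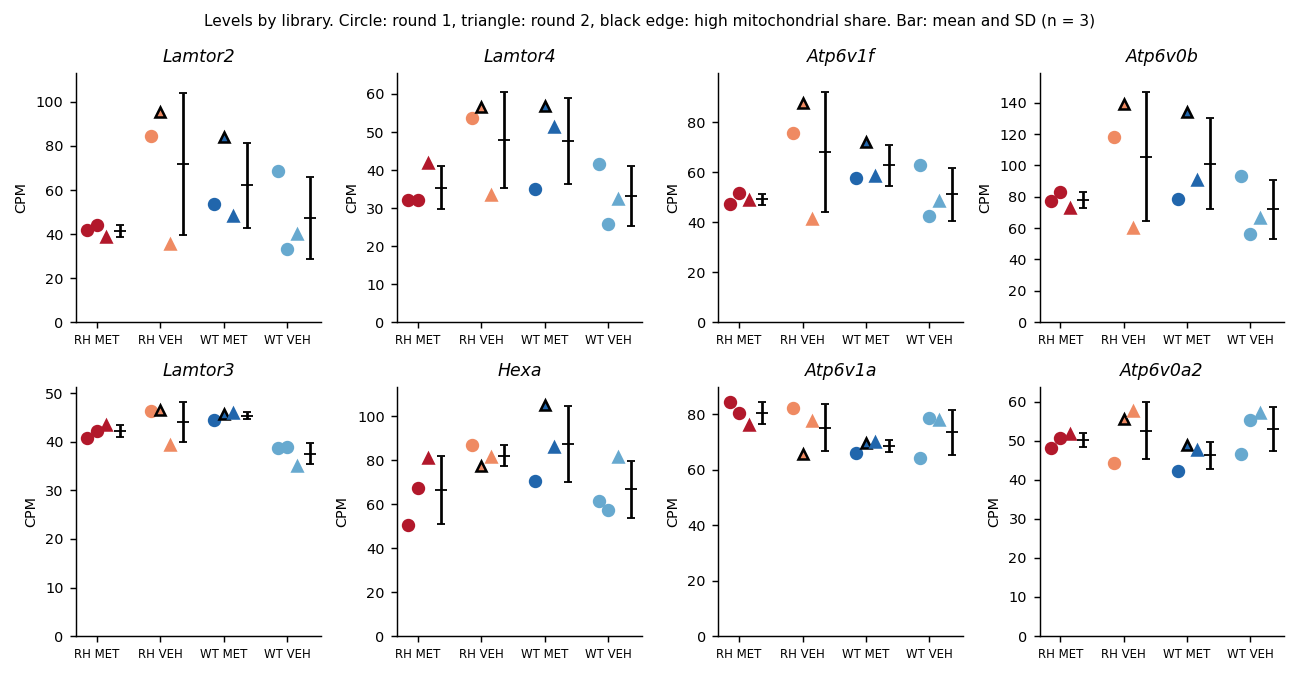
CPM of 8 members in each library, by group from RH MET to WT VEH; circles are round 1, triangles round 2, black edges the libraries WT MET 2 and RH VEH 2, and bars the mean and SD of 3 libraries. For Lamtor2, RH VEH 1 and 2 stand at 84.5 and 95.6 CPM and RH VEH 3 at 35.3, so the wide bar of that group comes from libraries on both sides of RH MET.

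Taken as the 5 Ragulator genes, 5 were higher in RH VEH than in WT VEH (median log2 fold change 0.24), 1 was higher in RH MET than in WT MET (−0.21), 0 were higher in RH MET than in RH VEH (−0.12) and 4 were higher in WT MET than in WT VEH (0.29). None passed the threshold, and comparisons that share a group share its 3 libraries. In round 2 alone, 3 of the 5 were higher in RH VEH than in WT VEH and 3 of the 5 were higher in RH MET than in RH VEH (median 0.04). In round 1, with RH VEH 1 as its only RH VEH library, the counts were 5 and 0. The summed level was 209 ± 7.21 CPM in RH MET, 257 ± 61 in RH VEH, 243 ± 19.5 in WT MET and 211 ± 44.2 in WT VEH (SD, n = 3 each). RH MET was the group with the least spread.

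The groups overlapped for each of the 5 proteases. Ctsd averaged 253 ± 25.3 CPM in RH MET, 256 ± 46.4 in RH VEH, 239 ± 56.5 in WT MET and 274 ± 58.5 in WT VEH (SD, n = 3 each). The cysteine protease Ctsb averaged 334 ± 54.9, 337 ± 73.7, 329 ± 88.9 and 382 ± 52.5 CPM in the same groups. For both, WT MET 2 and RH VEH 2 were the 2 lowest of the 12 libraries and WT VEH 1 the highest. Ctsa, a carboxypeptidase that also protects beta-galactosidase, kept within 1.29-fold over all libraries, Ctsz averaged 105 CPM and Ctsl 32.2 CPM.

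Among the glycosidases, Hexa, the alpha subunit of beta-hexosaminidase, stood at 50.3, 67.5 and 81.1 CPM in RH MET 1, 2 and 3, at 87, 77.3 and 81.6 in RH VEH, at 70.6, 105 and 85.9 in WT MET and at 61.4, 57.4 and 81.4 in WT VEH. RH MET overlaps WT MET through RH MET 3. The fold change of RH MET against WT MET was −0.29 ± 0.169 (adjusted p = 0.738, edgeR), and −0.17 without RH MET 1.

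Gaa, the acid alpha-glucosidase that degrades glycogen, was lower in every WT MET library (87.4, 70.7 and 83.3 CPM) than in every WT VEH library (89.8, 106 and 92.4 CPM), with a fold change of −0.20 ± 0.130. The beta-galactosidase Glb1 had its lowest value in RH VEH 2, 18.4 CPM, and stood at 32.9 to 47.5 CPM outside WT MET 2 and RH VEH 2. Psap averaged 445 ± 35.5 CPM in RH MET, 466 ± 121 in RH VEH, 458 ± 64.2 in WT MET and 529 ± 94.9 in WT VEH (SD, n = 3 each). Tfeb averaged 10.9 ± 1.45 CPM in RH MET, 12.1 ± 1.75 in RH VEH, 10.7 ± 1.6 in WT MET and 12.2 ± 3.36 in WT VEH, and Mcoln1 averaged 41.3 CPM over the 12 libraries, with 61.8 in WT MET 2 and 52.6 in RH VEH 2.

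**Figure D4:**
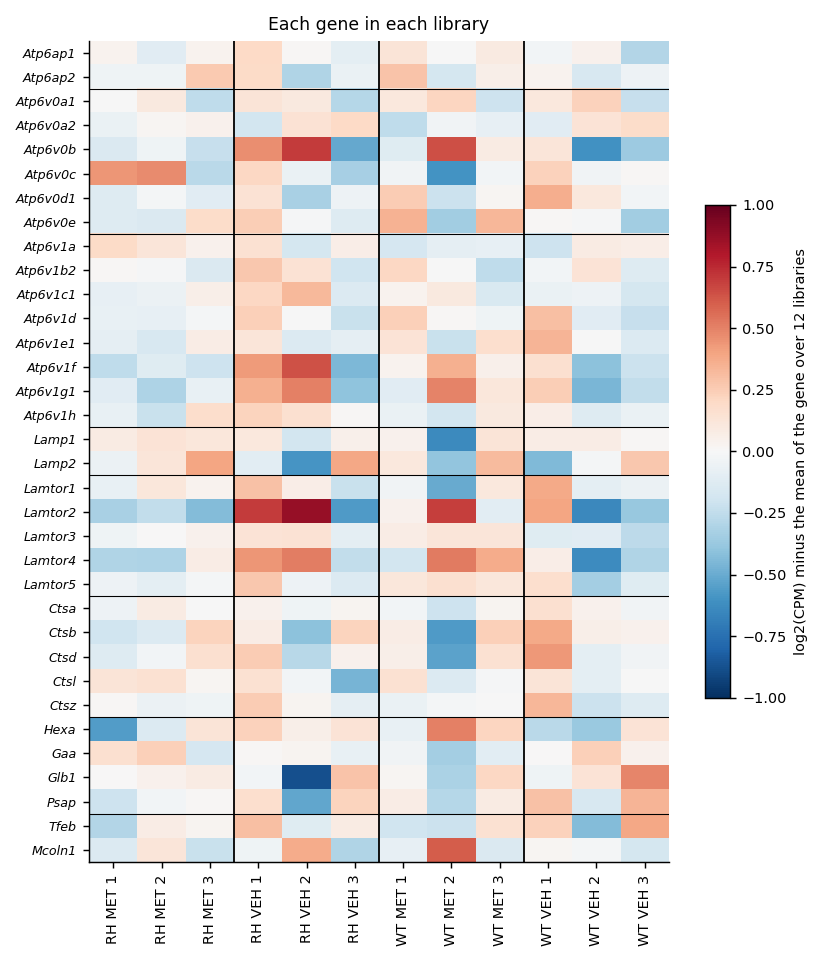
Each of the 34 genes (rows, grouped by role) in each library (columns), as log2 CPM minus the gene's mean over 12 libraries; red is above and blue below the mean. Many of the strongest colours are in RH VEH 2 and WT MET 2, red for Lamtor2 and Atp6v0b and blue for Ctsb. Glb1 is blue in RH VEH 2 (18.4 CPM). Lamtor2 is about as red in RH VEH 1 (84.5 CPM) as in WT MET 2 (84.2 CPM).

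Over the 34 genes as a list, differences were small. In RH VEH against WT VEH, 20 were higher and 14 lower (all genes 50.3% and 49.7%) with a median log2 fold change of 0.04, and all genes had a median of 0.00. In RH MET against WT MET, 14 were higher and 20 lower (all genes 48% and 52%) with a median of −0.04, against −0.02. In WT MET against WT VEH, 19 were higher and 15 lower (all genes 51.9% and 48.1%) with a median of 0.04, against 0.01. The mean genotype effect was positive for 20 and negative for 14 members (all genes 49.7% and 50.3%), and the mean metformin effect positive for 13 and negative for 21 (all genes 47.7% and 52.3%).

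In RH MET against RH VEH, 9 of 34 were higher and 25 lower (all genes 49.3% and 50.7%) with a median of −0.10, against −0.01. The median was −0.26 in round 1, with 27 lower and RH VEH 1 as the only RH VEH library, and 0.07 in round 2, with 12 lower and RH MET 3 as the only RH MET library. It was −0.02 without RH VEH 1 and −0.19 without RH MET 3. The direction did not hold within both rounds.

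Groups that did not overlap were set against their share among all genes. All RH VEH libraries were above all WT VEH libraries for 1 member, Lamtor3, and for 2.71% of all genes, and below for 0 members and 3.23%. All RH MET libraries were above all WT MET libraries for 1 member, Atp6v1a (all genes 7.97%), and below for 4, Atp6v1f, Lamtor2, Lamtor3 and Lamtor5 (8.94%). No member separated RH MET from RH VEH (4.11% of all genes higher and 2.81% lower). WT MET lay above WT VEH for Lamtor3 (4.98%) and below for Gaa (4.4%).

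The difference between the metformin effects, that in RH minus that in WT, was positive for 14 and negative for 20 of 34 members (all genes 48.3% and 51.7%), with a median of −0.10, against −0.02. Members at an unadjusted p under 0.05 were 3 of 34, where 6.21% of all genes were. They were Lamtor4 (−0.85 ± 0.362), Atp6v1f (−0.79 ± 0.359) and Lamtor2 (−1.28 ± 0.569), each at an adjusted p of 0.648 (edgeR). Without WT MET 2 and RH VEH 2 they were −0.65, −0.47 and −0.71, and without RH VEH 1 that of Lamtor4 was −0.50. The list's median was −0.24 in round 1 and 0.11 in round 2, and 0.02 without RH VEH 1.

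Those 3 members have short gene models, and short genes of all kinds moved between libraries. Of the 34 members, 6 are under 1.5 kb: Lamtor2, Lamtor4, Lamtor5, Atp6v1f, Atp6v1g1 and Ctsz. Their median log2 fold change was 0.37 in RH VEH against WT VEH (0.12 over all 2428 genes under 1.5 kb), −0.35 in RH MET against WT MET (−0.23), −0.38 in RH MET against RH VEH (−0.17) and 0.30 in WT MET against WT VEH (0.17). For the 11 members of 5 kb or more the same medians were 0.03, 0.03, −0.09 and 0.02, against −0.06, 0.08, 0.07 and −0.07 over all 5390 such genes. The median of the 6 short members lay above their own mean by 0.39 in RH VEH 1, 0.51 in RH VEH 2, 0.42 in WT MET 2 and 0.21 in WT VEH 1, and below it by 0.32 in RH VEH 3 and 0.44 in WT VEH 2 (log2). The median of all genes under 1.5 kb moved the same way in these 6 libraries, by 0.15, 0.20, 0.14 and 0.19 above and by 0.18 and 0.17 below. In WT MET 1 the 2 medians differed in sign, at −0.02 for the members and 0.09 for all such genes. The part that this plays in the values of the 6 members was not tested.

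**Figure D5:**
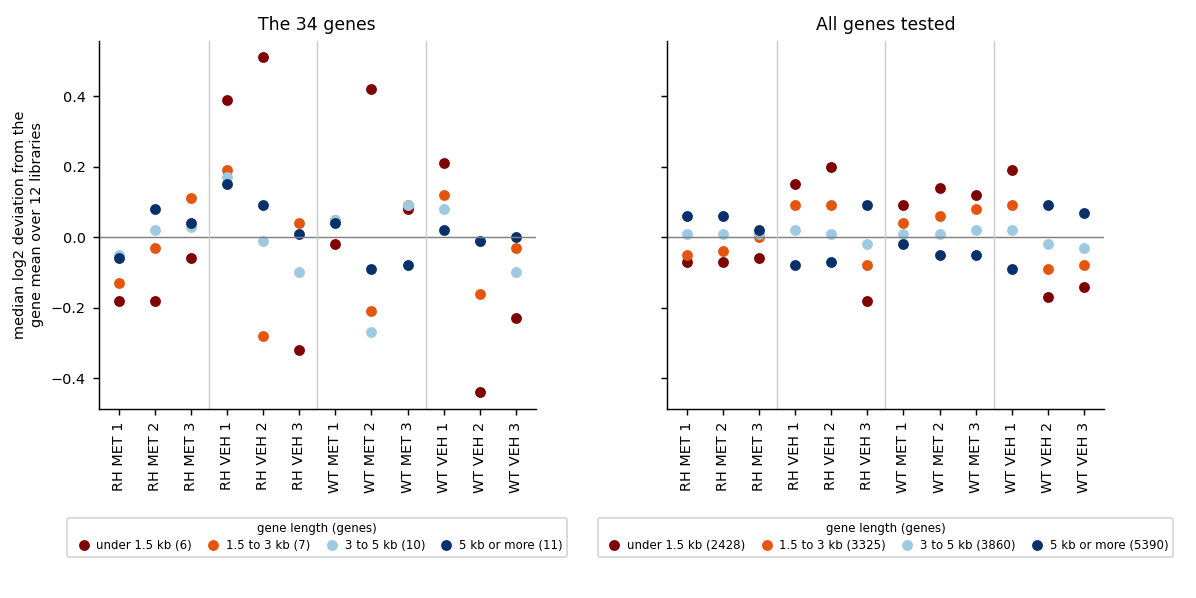
Median log2 deviation from the gene's mean over 12 libraries, for the 34 genes (left) and all 15003 genes tested (right), by length of the gene model; numbers in the legend count genes. Members under 1.5 kb lie at 0.51 in RH VEH 2 and −0.44 in WT VEH 2, and all genes under 1.5 kb at 0.20 and −0.17.

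The 2 libraries rich in mitochondrial transcripts moved the members in both directions. Both lay below all other 10 libraries for 7 members (20.6%, against 12.2% of all genes): Lamp1, Ctsb, Ctsd, Glb1, Psap, Atp6ap2 and Atp6v0d1. Both lay above for 4 (11.8%, against 13.1%): Atp6v0b, Atp6v1g1, Lamtor4 and Mcoln1. Monocyte and macrophage markers, of cells rich in lysosomes, were low in the same 2 libraries, as given above. In the groups, these 13 markers summed to 613 to 1070 CPM in RH MET, 198 to 940 in RH VEH, 255 to 817 in WT MET and 466 to 1150 in WT VEH, and none of them was at 0 in any library. Their part in the levels of the members was not tested. Of 6 markers of osteoclasts, cells that carry the V-ATPase on their surface, Acp5 stood at 73.4 to 145 CPM, Ctsk at 1.4 to 7.46 and Atp6v0d2 at 0 to 1.4, and Calcr, Ocstamp and Dcstamp had at most 6 reads in any library.

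Genes of the same pathway that are not among the 34 were examined as further lists. None passed the threshold in the 4 comparisons between single groups. Some of these genes are also in the marker lists: Ctss and Cd68 for monocytes and macrophages, and Acp5, Ctsk and Atp6v0d2 for osteoclasts. Of 40 other lysosomal hydrolases, 28 were higher in RH MET than in WT MET (median log2 fold change 0.12), 27 were higher in RH MET than in RH VEH (0.08), 16 in RH VEH than in WT VEH (−0.09) and 11 in WT MET than in WT VEH (−0.13). Of 14 genes for delivery of enzymes to lysosomes, 11 were higher in RH MET than in WT MET (0.21), 11 in RH MET than in RH VEH (0.15), 2 in RH VEH than in WT VEH (−0.13) and 3 in WT MET than in WT VEH (−0.19). The granulocyte markers ran the same way: 13 of 13 were higher in RH MET than in WT MET (median 1.06) and in RH MET than in RH VEH (1.14), while 1 of 13 was higher in RH VEH than in WT VEH (−0.65) and 0 of 13 in WT MET than in WT VEH (−0.56). Monocyte and macrophage markers did too, with medians nearer 0. Of these 13, 12 were higher in RH MET than in WT MET (median 0.26) and 11 in RH MET than in RH VEH (0.21). In RH VEH against WT VEH 2 were higher (−0.31), and in WT MET against WT VEH 1 was (−0.33). The part of either marker list in these pathway lists was not tested.

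Of 23 genes of the Rag GTPases and mTORC1, 18 were higher in RH MET than in WT MET (median 0.10), 17 in RH MET than in RH VEH (0.13), 7 in RH VEH than in WT VEH (−0.11) and 10 in WT MET than in WT VEH (−0.04). The gene of smallest p was Mtor, the kinase itself, at 65, 64 and 55.1 CPM in RH MET, 44, 41.6 and 61.5 in RH VEH, 43.6, 38.3 and 47.1 in WT MET and 51.2, 65 and 63.3 in WT VEH. All RH MET libraries were above all WT MET libraries, with a fold change of 0.52 ± 0.179 (adjusted p = 0.738, edgeR). Of 24 other lysosomal membrane proteins tested, 12 to 14 were higher in each of these comparisons. Laptm4a, a small lysosomal membrane protein, was the front gene, with 138 ± 4.37 CPM in WT MET and 110 ± 4.97 in WT VEH (SD, n = 3 each) and a fold change of 0.32 ± 0.110 (adjusted p = 0.876).

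Of the 10 other V-ATPase genes, 4 passed the filter, and all 4 were lower in RH MET than in WT MET (median −0.43); without WT MET 2 and RH VEH 2, 3 of the 4 were. Tcirg1, the a subunit of osteoclast and immune cell pumps, had the most reads of the 4, at 63.3, 80 and 82.6 CPM in RH MET and 61.3, 157 and 74.8 in WT MET. WT MET 2 was the highest, and the other WT MET libraries lay below RH MET 2 and 3. The smallest p was that of Atp6v0d2, an osteoclast and macrophage subunit with 96 reads summed over the 12 libraries, at 0.179 ± 0.164 CPM in RH MET and 0.665 ± 0.633 in WT MET (SD, n = 3 each; adjusted p = 0.738, edgeR). The 3 relatives of Tfeb (Mitf, Tfe3 and Tfec) had medians of −0.14, 0.13, 0.26 and −0.08 in RH VEH against WT VEH, RH MET against WT MET, RH MET against RH VEH and WT MET against WT VEH; Mitf was at the front with 1.94 ± 0.647 CPM in RH VEH and 3.04 ± 1.01 in WT VEH (SD, n = 3 each). For enzyme delivery the front gene was the sorting adaptor Gga2, at 88.9 ± 13.6 CPM in RH MET and 66.6 ± 7.97 in WT MET (adjusted p = 0.738, edgeR).

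For the hydrolases it was Ctsw, a protease of cytotoxic lymphocytes, at 4.82 ± 2.31 CPM in RH MET and 11.6 ± 2.76 in WT MET (SD, n = 3 each). Every RH MET library was below every WT MET library, with a fold change of −1.18 ± 0.335 (adjusted p = 0.738, edgeR). T and NK cell markers were lower in the same comparison for 11 of 11 genes (median −1.14), at 49.4 to 99.2 CPM summed in RH MET and 93.2 to 122 in WT MET. Their part in the value of Ctsw was not tested.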

How the data were processed

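RNA from Lin-cKit+ mouse bone marrow cells was sequenced as 12 libraries. Raw read counts per gene were deposited by the authors as whole numbers with no normalization; STAR 2.5, HTSeq 0.6.1 and mm10 are named per the submitters' processing notes, and settings for strand and multiple hits are not given in the sources used here. A smaller deposited table repeats 6 of the 12 count columns unchanged (round 1; the others are round 2), and its other 2 columns match no sample and were not used here. Library numbers are those of the columns: by name, 5 columns match the title of 1 sample and 7 give a group only. Of these 7, RH VEH 1 holds the same counts as the column numbered RH VEH 2 in the smaller table. No libraries of a group agreed within sampling noise. Round 1 is RH MET 1 and 2, RH VEH 1, WT MET 1, and WT VEH 1 and 2.

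The counts were tested with edgeR 4.0.16 (quasi-likelihood, robust; R 4.3.3) with TMM normalization, filterByExpr (15003 of 54532 genes kept) and a model of group means plus a round term over all libraries. Benjamini-Hochberg adjustment was over all genes tested, per comparison, at 0.05. Fold changes are log2 with SE and 95% intervals. Levels are TMM-normalised counts (CPM), divided by the deposited gene length where genes are compared. The common biological coefficient of variation was 0.256, and 1 CPM stood for 8.37 to 24.8 reads, and the lowest member count was 87 reads. The steps were tested on simulated counts. Alternatives were other size factors, DESeq2 1.42.0, limma-voom (limma 3.58.1), no filter, no round term, a replicate block, fewer samples, and counts without mitochondrial genes.

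The members and lists were chosen with earlier results of these data known. Every member is named; in each comparison the 3 of smallest p are given by library, with the member of widest ratio, and of each further list the gene of smallest p. Further members were named after their values were seen, among them Gaa, Lamp1 and Glb1. Ctsz overlaps Nelfcd on the other strand, with 96.9 reads in Nelfcd per 100 in Ctsz; Fdft1 held 8.98 per 100 of Ctsb and Tmppe 9.03 per 100 of Glb1, and reads of such pairs could be split or lost.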

Additional observations from a re-analysis of the deposited data

Results flagged for a closer look

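Lamtor3 stood out because the genotypes parted in opposite directions under the 2 treatments. Every RH VEH library (46.3, 46.6 and 39.4 CPM) was above every WT VEH library (38.7, 38.9 and 35.1 CPM), and every RH MET library (40.9, 42.3 and 43.5 CPM) was below every WT MET library (44.5, 45.8 and 45.9 CPM). The metformin effect in RH minus that in WT was −0.36 ± 0.186 (log2, SE), at an unadjusted p of 0.0751 and an adjusted p of 0.648 (edgeR quasi-likelihood test), so the difference was tested and did not pass. Such an opposite separation was found for 94 of 15003 genes.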

How the results depend on the processing

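Across the alternatives, members called moved from 0 to 9 in the difference between the metformin effects and to 5 in RH MET against RH VEH with limma-voom, and to 1 (Lamtor2) in both with no filter on low counts; every other alternative called 0 members in all 7 comparisons. Limma-voom also called 1795 and 1547 of all 15003 genes there, and no filter 431 and 229 of 27530. DESeq2 called 22, 20, 3 and 1 genes of all kinds in RH MET against WT MET, the mean genotype effect, RH VEH against WT VEH and WT MET against WT VEH, where edgeR called 1, 1, 0 and 0, and both called 0 in the other 3 comparisons. The remaining alternatives called 0 to 3 genes in each comparison. The 9 members that limma-voom called were Lamtor2, Lamtor4, Lamtor5, Atp6v1f, Atp6v1g1, Atp6v1d, Atp6v0b, Atp6v0e and Hexa. Its library weights ran from 0.339 (RH VEH 3) to 2.93 (RH VEH 1). The cause of its calls was not tested.

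Some medians over the members moved by more than 0.108, the pooled SD within groups of the members' median per library. For the difference between the metformin effects they were −0.28 with limma-voom, −0.24 in the first round and 0.11 in the second. For RH MET against RH VEH they were −0.26 in the first round and 0.07 in the second. For RH MET against WT MET the second round gave 0.07, and for RH VEH against WT VEH limma-voom gave 0.19. Leaving out 1 library gave −0.18 (without RH MET 3) to 0.02 (without RH VEH 1) for the difference and −0.15 (without RH MET 3) to −0.01 for RH MET against WT MET. The mean genotype effect of Atp6v0c reversed to −0.11 in the second round.

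With limma-voom, Lamtor2, Lamtor4 and Atp6v1f passed in RH MET against RH VEH (adjusted p = 0.029 to 0.0318) and in the difference (0.0211 to 0.0238). In that fit RH VEH 1 had a weight of 2.93, and RH VEH 2 and 3 had 0.361 and 0.339. Within RH VEH these calls therefore rest mainly on RH VEH 1. RH VEH 3 lay below every RH MET library for Lamtor2 (35.3 CPM) and Atp6v1f (41.3 CPM), but not for Lamtor4 (33.5 CPM). Column numbers were not taken as pairing, since no label ties them to a shared source and not every same-numbered pair correlated above 0.1 in its deviations. Of the 18 same-numbered pairs, 13 did, and 10 of 12 libraries correlated best with their own number. Column number is partly tied to round: every library numbered 1 is of round 1, and every library numbered 3 of round 2. RH VEH 2 and WT MET 2, which correlated at 0.37, are the 2 libraries rich in mitochondrial transcripts. Pairing cannot be told apart from these, and the design names none. With the replicate block the medians ran from −0.08 for the difference to 0.03 for RH VEH against WT VEH, 0 members were called, and calls over all genes went to 2 from 0 in RH VEH against WT VEH. Fits with only the groups compared could not be made for the difference and the mean effects, which need all 4 groups. Depth limits Tfeb most, at 87 to 306 reads per library.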
